A study of Mus musculus with 18 samples.

Results

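The levels of 9 receptors through which growth factors act on blood cells were followed across the Fabp4 genotypes. They were chosen by name, with earlier results of these data known, and are Kit, Flt3, Csf1r, Csf2ra, Il3ra, Csf2rb, Csf2rb2, Csf3r and Epor. All 9 had a row among the 22017 genes of the in vitro table and passed the filter on low values there (an FPKM of 1 or more in 3 or more libraries, where FPKM are fragments scaled by transcript length and by the mapped total). Of these, 8 had a row among the 13195 genes of the sorted bone marrow table, where 6 passed the same filter. Csf2rb2 and Il3ra did not pass it in bone marrow, and Epor was not analysed there.

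Bulk RNA sequencing libraries came from mouse bone marrow cells of 3 Fabp4 genotypes, wild type (WT), heterozygous knockout (HET) and homozygous knockout (KO), where Fabp4 encodes a fatty acid binding protein of adipocytes and macrophages. The in vitro set, which the labels give as sorted from vitro bone marrow, had 3 libraries per genotype, and the sorted bone marrow set had 3 WT, 2 HET (replicates 1 and 3) and 3 KO libraries. HET replicate 2 of bone marrow was not used here. The sorted population, the culture, the mouse strain, the age, the sex and the way the knockout was made are not given in the sources used, so what limits each group as a model is known only this far. Fabp4 itself was listed at 0 in WT 1 and at 0.0326 and 0.330 FPKM in WT 2 and WT 3 of the in vitro set, at 0.0676 in HET 2, at 0 in the other two HET libraries and at 0 in all 3 KO libraries. At these levels it checks the genotype labels only weakly, and it was not analysed in bone marrow.

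Growth factor receptors of blood cells fall into a pair of families. Kit, Flt3 and Csf1r are tyrosine kinases that cross the membrane once and phosphorylate themselves after their ligands (stem cell factor, Flt3 ligand, and M-CSF or IL-34) pair them up, whereas the GM-CSF, IL-3, G-CSF and erythropoietin receptors have no kinase of their own and signal through bound Janus kinases to STAT5 or STAT3. Kit marks stem cells, progenitors and mast cells, Flt3 early lymphoid-primed progenitors and dendritic cell precursors, Csf1r the monocyte and macrophage lineage, Csf3r neutrophils and their precursors, and Epor erythroid progenitors.

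The beta chain comes in paralogues in the mouse, which bears on how their levels can be read. Csf2rb, at chr15:78325800-78351001 (GRCm38.p6), encodes the beta chain that the GM-CSF, IL-3 and IL-5 receptors share, and the neighbouring Csf2rb2, at chr15:78282507-78305721, encodes a mouse beta chain that serves IL-3 only. In the GENCODE transcripts their coding sequences of 2691 and 2637 bases were 95.2% identical over 2631 aligned bases, the longest identical run was 242 bases, and 26.0% of the stretches of 50 bases in the coding sequence of Csf2rb also occurred in that of Csf2rb2. Reads from such stretches could have been given to either gene, and the sources used do not say how the authors' counting treated them. The stretch of 90 coding bases below, shown because reads from it can tell the paralogues apart, has its 16 differing bases in capitals.
Csf2rb, coding bases 308 to 397: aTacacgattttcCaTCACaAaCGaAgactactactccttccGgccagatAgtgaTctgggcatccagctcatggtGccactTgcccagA
Csf2rb2, coding bases 311 to 400: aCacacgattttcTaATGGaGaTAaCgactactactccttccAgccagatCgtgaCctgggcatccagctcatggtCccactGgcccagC

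The 250 bases before a listed start of each gene (GRCm38.p6) were searched on both strands for GAGGAA. This is the core motif of PU.1, the ETS factor of myeloid cells encoded by Spi1. Windows were matched for Kit, Flt3, Csf2ra, Il3ra, Csf2rb2, Csf3r and Epor, and 4 of these 7 held the motif, against 23.1% of all 27025 windows of that length. Csf1r and Csf2rb, which also differed between genotypes below, are not among these 7. The C/EBP motif TTNNGCAA was found in 1 of the 7, that of Il3ra, against 9.55% of all windows. The bases around the PU.1 core are printed because Csf2ra and Csf3r are among the receptors that differed between genotypes below, with the core or its reverse complement in capitals. The listed start is not the only one, and GENCODE places exons of other transcripts over the core of Csf3r, over part of the printed stretch of Csf2ra and over part of the windows of Kit and Il3ra. The RefSeq gene spans of Csf3r (chr4:126023441-126044975) and Il3ra (chr14:14345912-14355493) hold their whole windows. That of Csf2ra (chr19:61217191-61228461) holds its printed stretch, so these are not upstream of the whole gene. A match is a description of letters and no evidence of binding.
Csf2ra, chr19:61228419-61228448, minus strand: ttcccaacctgcagatGAGGAAGAGGAAgc
Csf3r, chr4:126024561-126024590, plus strand: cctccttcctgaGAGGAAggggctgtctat
Kit, chr5:75574752-75574781, plus strand: ggagagtgctagGAGGAAgaggatccaggg
Csf2rb2, chr15:78305871-78305900, minus strand: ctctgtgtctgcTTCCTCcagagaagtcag

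The libraries of the sets differed in how evenly they were covered. Low FPKM values step by what 1 fragment is worth, which put the in vitro depth at about 30.6 to 37.4 M fragments, and the bone marrow depth at about 21.8 to 31.7 M in WT, 3.93 and 11.6 M in HET and 16.3 to 35.8 M in KO. In vitro libraries correlated with each other at Spearman coefficients of 0.962 to 0.970 across genes (36 pairs), and bone marrow libraries at 0.427 to 0.621 (28 pairs). In bone marrow, Tbp, a general transcription factor gene, was listed at 0 in 3 of 8 libraries, so a receptor at 0 there is given only as listed at 0. Within a genotype the members varied in vitro with an SD of 0.11 to 0.30 on the log2(FPKM + 1) scale, and the 6 tested in bone marrow with an SD of 0.58 to 2.36.

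In the in vitro set the beta chains stood far above the other receptors. FPKM is scaled per length, so levels of different genes can be set side by side. Csf2rb ranked first among the 9 receptors and Csf2rb2 the second in each of the 9 libraries, with Csf2rb at the 94.8 to 98.0 percentile of all genes listed above 0 in a library. Kit, Il3ra and Csf3r shared the third to the fifth places in changing order, Epor was sixth throughout, and Csf2ra, Csf1r and Flt3 shared the lowest places. Flt3 lay between the 38.6 and 49.97 percentile.

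**Figure D1:**
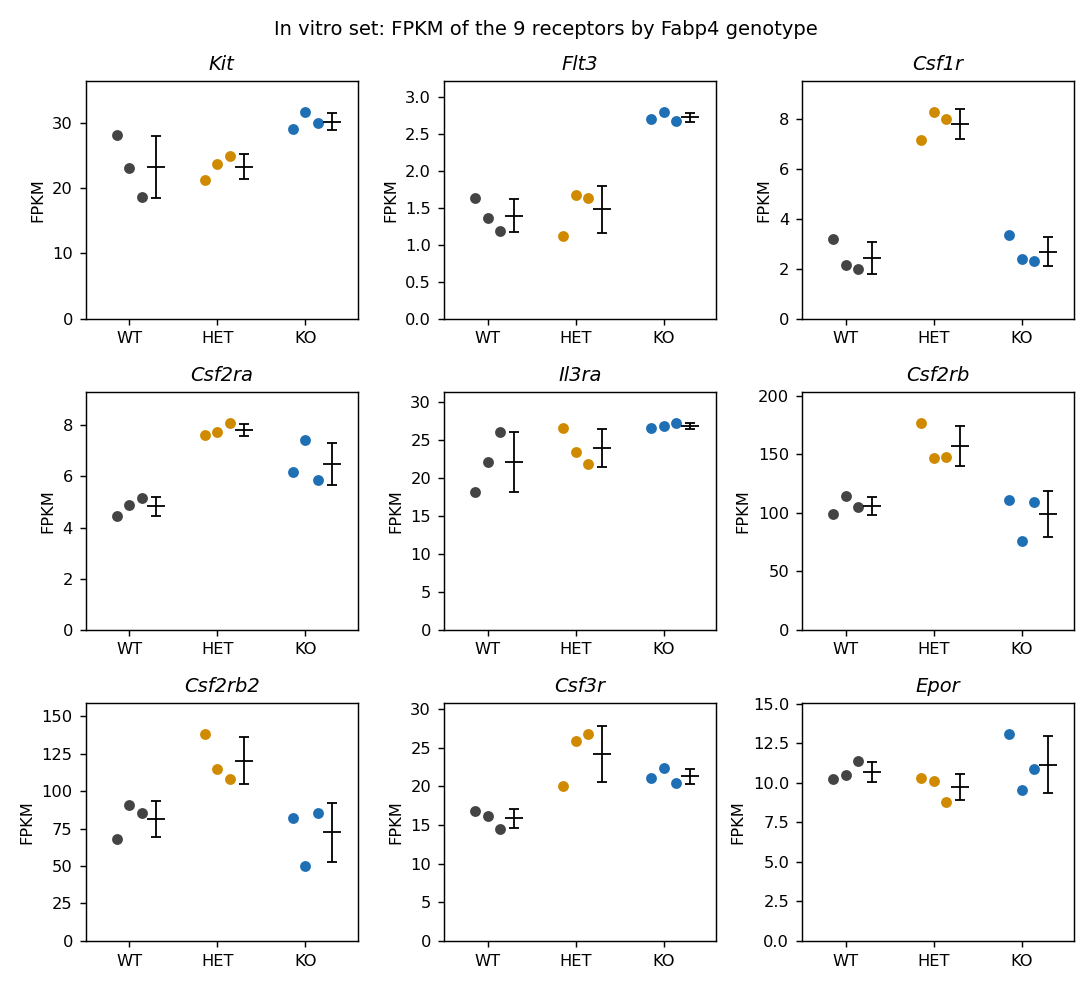
FPKM of the 9 receptors in the in vitro set, with 1 panel per gene and a linear axis from 0. Points are libraries (3 per genotype), and the bars beside them give the mean ± SD. In Csf1r the 3 HET libraries (7.13 to 8.27 FPKM) lie above the other 6, and in Flt3 the 3 KO libraries (2.67 to 2.80 FPKM) do.

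The clearest difference among the kinase receptors was in Csf1r, the M-CSF receptor of the macrophage lineage. Its level was 3.18, 2.13 and 1.99 FPKM in WT 1 to 3, 7.13, 8.27 and 8.0 in HET 1 to 3, and 3.35, 2.38 and 2.30 in KO 1 to 3. Every HET library was above every WT and KO library, while WT and KO overlapped. The HET mean was 7.80 ± 0.60 FPKM (SD, n = 3) against 2.43 ± 0.65 in WT and 2.68 ± 0.59 in KO. On the log2(FPKM + 1) scale Csf1r rose by 1.37 ± 0.15 (SE) in HET against WT (limma, adjusted p = 0.000311) and was lower in KO than in HET, with a change of -1.27 ± 0.15 (limma, adjusted p = 0.000727). Both calls held in all 9 refits that left out 1 library each. KO and WT differed by 0.10 ± 0.15 (limma, adjusted p = 0.744).

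Flt3, the receptor of early progenitors and dendritic cell precursors, was the receptor that differed in KO. It was low in all libraries, at 1.63, 1.37 and 1.18 FPKM in WT, 1.12, 1.68 and 1.64 in HET, and 2.71, 2.80 and 2.67 in KO. The 3 KO libraries lay above the other 6, and WT overlapped HET. Flt3 rose by 0.64 ± 0.12 in KO against WT (limma, adjusted p = 0.0168) and by 0.60 ± 0.12 in KO against HET (limma, adjusted p = 0.0232), with 0.05 ± 0.12 between HET and WT (limma, adjusted p = 0.843). These calls were near the threshold. The KO against WT call was lost without WT 2, KO 1 or KO 3, with adjusted p of up to 0.0754 in limma, and the KO against HET call held in 3 of 9 such refits, with adjusted p of up to 0.0946. With a filter at FPKM of 5 the gene was not tested.

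Kit, the stem cell factor receptor, was also highest in KO but did not pass the test. Its levels were 28.2, 23.1 and 18.7 FPKM in WT, 21.2, 23.8 and 24.98 in HET, and 29.1, 31.7 and 29.96 in KO. The KO libraries again lay above the other 6, but WT 1 was close to them. The change in KO was 0.38 ± 0.12 against WT (limma, adjusted p = 0.121) and 0.36 ± 0.12 against HET (limma, adjusted p = 0.198). Without WT 1 the KO against WT change was 0.52 and passed (limma, adjusted p = 0.0275). Across the 9 libraries the levels of Kit and Flt3 had a Pearson r of 0.901 on the log2 scale, as a description of libraries that share their genotypes. Kit was 14.1 to 19.0 times Flt3 in the WT and HET libraries and 10.7 to 11.3 times in the KO libraries.

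The ligand-specific chains of the GM-CSF and IL-3 receptors differed from each other. Csf2ra, the GM-CSF alpha chain, was at 4.44, 4.90 and 5.16 FPKM in WT, 7.63, 7.74 and 8.09 in HET, and 6.19, 7.41 and 5.88 in KO. The genotypes did not overlap, with WT lowest, KO between and HET highest. Csf2ra rose by 0.60 ± 0.10 in HET against WT (limma, adjusted p = 0.00912), a call lost without HET 2 or HET 3, with adjusted p of up to 0.0628. The KO change was 0.36 ± 0.10 against WT (limma, adjusted p = 0.0815) and -0.24 ± 0.10 against HET (limma, adjusted p = 0.316). Il3ra, the IL-3 alpha chain, was at 18.2, 22.2 and 26.0 FPKM in WT, 26.6, 23.5 and 21.8 in HET, and 26.5, 26.9 and 27.2 in KO. Its WT and HET libraries overlapped, KO 1 stood just above the highest WT library, and no comparison passed (limma, adjusted p of 0.204 for KO against WT, 0.559 for HET against WT and 0.643 for KO against HET).

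Both beta chains were highest in the HET libraries. Csf2rb was at 98.9, 114 and 105 FPKM in WT, 177, 147 and 148 in HET, and 111, 76.2 and 109 in KO. Csf2rb2 was at 67.8, 91.1 and 85.4 FPKM in WT, 138, 115 and 108 in HET, and 82.1, 49.8 and 85.6 in KO. For both genes the HET libraries lay above all others, WT overlapped KO, and KO 2 was the lowest library. The 10 listed marker genes of mast cells and basophils summed to 1677 FPKM in KO 2, against 2373 and 2677 in KO 1 and KO 3. Their sum was 1346, 2663 and 3486 in WT 1 to 3 and 2619 to 2871 in HET. The part of these cells in the beta chain values was not tested. Csf2rb rose by 0.56 ± 0.13 in HET against WT (limma, adjusted p = 0.0411) and was lower in KO than in HET, with a change of -0.68 ± 0.13 (limma, adjusted p = 0.0212). The first call held in 2 of 9 refits without 1 library, with adjusted p of up to 0.162, and was also missed without a filter (0.105) and with median-ratio size factors (0.0531). The KO against HET call was lost without HET 1, HET 2 or HET 3 (adjusted p of up to 0.102) and without a filter (0.0730).

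Csf2rb2 had changes of the same size as Csf2rb and a wider spread. They were 0.56 ± 0.19 in HET against WT (limma, adjusted p = 0.108) and -0.76 ± 0.19 in KO against HET (limma, adjusted p = 0.0683). Over the 9 libraries the levels of the 2 genes had a Pearson r of 0.979, and Csf2rb was 1.23 to 1.53 times Csf2rb2 in every library. Reads from stretches that the genes share could have been given to either, so the levels cannot be taken as independent measurements. Csf2rb exceeded its partner Csf2ra 10.3 to 23.3 times, with the lowest ratio in KO 2.

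Csf3r, the G-CSF receptor of neutrophils and their precursors, was lowest in WT. It was at 16.9, 16.2 and 14.5 FPKM in WT, 20.1, 25.8 and 26.8 in HET, and 21.1, 22.3 and 20.4 in KO. Both knockout genotypes lay above WT in every library and overlapped each other. Csf3r rose by 0.57 ± 0.11 in HET against WT (limma, adjusted p = 0.0152), a call lost without HET 2 or HET 3, with adjusted p of up to 0.0846. In KO the change of 0.41 ± 0.11 against WT did not pass (limma, adjusted p = 0.0649), although it did without HET 1 (0.0252). Csf3r was 5.31 to 7.61 times Csf1r in WT, 2.81 to 3.34 times in HET and 6.31 to 9.39 times in KO, so the HET libraries stood apart in this ratio.

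Epor, the erythropoietin receptor, was the member with the least difference between genotypes. It was at 10.2, 10.5 and 11.4 FPKM in WT, 10.3, 10.1 and 8.77 in HET, and 13.1, 9.54 and 10.9 in KO. All genotypes overlapped, and the changes of 0.05 ± 0.11 in KO and -0.13 ± 0.11 in HET against WT did not pass (limma, adjusted p of 0.858 and 0.522).

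Counted together, 4 of the 9 receptors were called in HET against WT, all higher (Csf1r, Csf2ra, Csf2rb and Csf3r), where 3.68% of the 10877 genes tested were called. The median change of the 9 was 0.56, against 0.04 over all genes tested. In KO against WT 1 of 9 was called (Flt3), where 2.99% of genes were, with a median of 0.28 against 0.04. In KO against HET 3 of 9 were called (Flt3 higher, Csf1r and Csf2rb lower), where 1.99% of genes were, with a median of -0.17 against -0.00. The comparisons share their libraries and their counts are not independent. The HET against WT count fell to 1, Csf1r, without HET 2 or without HET 3, when calls over all genes fell from 400 to 89 and to 84. The KO against HET count fell to 1 without any 1 HET library, and the KO against WT count was 0 without WT 2, KO 1 or KO 3 and 2 without WT 1 or HET 1.

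**Figure D2:**
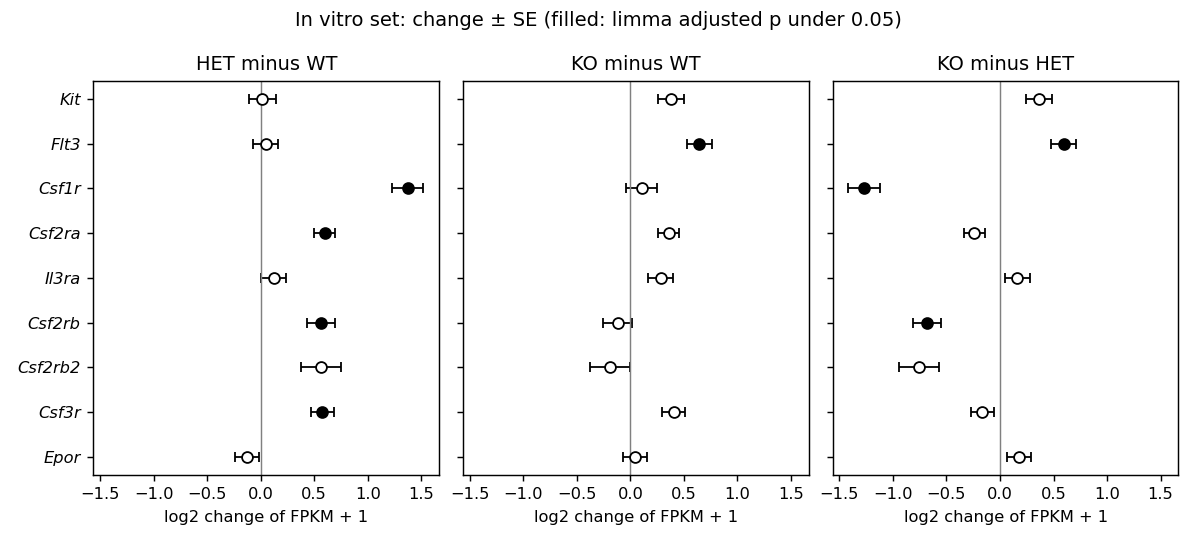
Change of each receptor in the in vitro set on the log2(FPKM + 1) scale, with its SE from limma, for HET minus WT, KO minus WT and KO minus HET (3 libraries per genotype). Filled points have an adjusted p under 0.05, which holds for 4, 1 and 3 receptors, and Csf1r in HET has the largest change of the 9 at 1.37.

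Some markers of monocytes and neutrophils also differed in the HET libraries, where 3.68% of all genes tested were called against WT. Of the monocyte and macrophage list, 5 of 11 tested genes rose in HET against WT, among them Ctss, a lysosomal protease (log2 change 1.76), Ccr2, a monocyte chemokine receptor (1.40), and Trem2, a myeloid lipid receptor (1.45). Ccr2 was higher in KO too, at 23.1 to 27.9 FPKM against 11.3 to 13.6 in WT, whereas Csf1r was called in HET and not in KO. Ctss had means of 4.93 FPKM in WT, 18.8 in HET and 4.34 in KO, and Trem2 of 0.763, 3.80 and 0.852. In KO against HET, 3 of 11 tested genes of this list were called lower and 0 higher, where 1.99% of all genes tested were called. The list's summed FPKM was 623 to 711 in HET, 466 to 599 in WT and 462 to 692 in KO, while the resident macrophage genes C1qa, C1qb and Mrc1 stayed below 0.115 FPKM in every library. Of the neutrophil list, 4 of 15 rose in HET, the granule genes Ltf and Mmp8 (8.78 FPKM in WT and 48.6 in HET), the surface gene Cd177 and the chemokine receptor Cxcr2, while the most abundant granule genes Elane, Mpo, Prtn3 and Ctsg had means of 1435, 1668, 941 and 1227 FPKM in HET against 1536, 1678, 1003 and 1325 in WT and were not called. S100a8, S100a9, Camp and Fcnb were above every WT library in each HET library. Their means were 1124, 1459, 73.1 and 33.1 FPKM in HET against 425, 484, 19.6 and 13.3 in WT. None of these passed (limma, adjusted p of 0.05025 to 0.106). In HET against WT, 9 of 15 neutrophil and 8 of 11 monocyte and macrophage genes had an unadjusted p under 0.05, against 2547 of all 10877. In KO against HET, 3 of the 15 neutrophil genes were called lower and 0 higher, and Mmp8 had a mean of 9.32 FPKM in KO. The neutrophil list's summed level was 7332 to 9828 in HET, 5950 to 7600 in WT and 5513 to 9526 in KO. In bulk samples more cells of a type and more RNA per cell cannot be told apart, and the part of these cells in the receptor differences was not tested. Sex-linked genes moved too, with Xist at 12.3 to 18.2 FPKM in HET against 31.4 to 49.6 in WT and 25.2 to 43.2 in KO, and the Y gene Ddx3y at 8.91 to 11.7, 2.39 to 3.82 and 5.48 to 7.10, and their part was not tested either.

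In KO against WT, where Flt3 rose, 2.99% of all genes tested were called. The monocyte and macrophage list had 2 of 11 tested genes higher in KO than in WT. These were Ccr2, by 1.03 (limma, adjusted p = 0.000439), and Ms4a6c, from 4.68 to 8.88 FPKM (limma, adjusted p = 0.0105). The stem and progenitor list had 1 of 9 higher, Hlf, a transcription factor of stem cells, with 0.731 FPKM in WT, 0.665 in HET and 2.63 in KO (log2 change 1.07 against WT). Hlf and Mecom were also higher in KO than in HET. The list's summed level overlapped between genotypes, at 381 to 421 FPKM in WT, 396 to 440 in HET and 390 to 440 in KO. Gata2 (133 to 244 FPKM) and Cd34 (72.3 to 116) weigh most in this sum, so it hardly reflects Hlf or Mecom. Cd48, also of this list, was at 54.2 to 59.2 FPKM in KO against 62.5 to 78.7 in WT and was not called. Of the eosinophil list 1 of 6 fell in KO, the ribonuclease gene Ear2, from 23.4 to 4.75 FPKM. The granule genes Prg2, Epx, Ear1 and Ear6 were also below every WT library, with log2 changes of -1.71 to -0.89 that did not pass (limma, adjusted p of 0.0512 to 0.0654), and the list's summed level was 1208 to 1641 FPKM in KO, 2217 to 2918 in WT and 1426 to 2816 in HET. Of the megakaryocyte list 1 of 6 fell, the platelet factor gene Pf4, from 97.8 to 71.4 FPKM. The part of these cells in the KO values of the receptors was not tested. Other than Flt3 itself, none of the 4 tested dendritic genes was called.

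Ligand genes were read in the same libraries. Of 8 ligand genes 6 had a row in vitro and 2 passed the filter. Flt3l, which encodes Flt3 ligand, was at 6.64 to 8.39 FPKM, above Flt3 in every library, and Csf1, which encodes M-CSF, at 4.03 to 7.85 in WT, 9.18 to 11.8 in HET and 5.24 to 10.1 in KO. Neither was called (limma, adjusted p of 0.157 or more for Csf1 in HET and KO against WT). Csf2 reached 0.890 FPKM at most, Csf3 0.320, Il34 0.0940 and Il3 0.0351, and Il3 was listed at 0 in 8 of 9 libraries.

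Signalling genes downstream of the receptors were counted against the same 3.68% of genes called in HET and 2.99% in KO against WT. In KO against WT, 2114 of the 10877 genes tested had an unadjusted p under 0.05. Of 10 JAK and STAT genes, 2 rose in HET against WT, the kinases Jak3 (0.42) and Tyk2 (0.42), with adjusted p of 0.0496 and 0.0353 in limma, and none was called in KO against WT (4 at an unadjusted p under 0.05). Jak2, which the erythropoietin and beta chain receptors use, was at 15.5 to 21.0 FPKM and changed by 0.04 in HET and 0.05 in KO, with neither called. Stat5a and Stat5b, the main transcription factors of these receptors, were not called in any comparison. Of 20 tested adaptors and kinases, the phosphoinositide 3-kinase subunit Pik3r5 (0.52) and the Src family kinase Fgr (0.86) rose in HET, and Fgr was lower in KO than in HET (-0.79). None of the 20 was called by limma in KO against WT (2 at an unadjusted p under 0.05).

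Among 19 genes that restrain receptor signalling, Socs3, the brake of G-CSF receptor signalling, rose in both knockout genotypes. It was at 11.1, 16.6 and 19.8 FPKM in WT, 28.0, 35.3 and 40.7 in HET, and 34.5, 32.1 and 34.0 in KO. All 6 HET and KO libraries lay above the 3 WT libraries, with log2 changes of 1.10 ± 0.18 in HET (limma, adjusted p = 0.00654) and 1.07 ± 0.18 in KO (limma, adjusted p = 0.0105). The adaptor Dok3 rose by 0.47 in HET and 0.44 in KO, and the other 17 brakes, Cish among them, were not called. The HET and KO changes are each set against the same WT libraries.

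Of 12 STAT5 target genes, the survival kinase Pim2 was lower in both genotypes, with a mean of 27.0 FPKM in WT, 15.5 in HET and 14.1 in KO (log2 changes of -0.79 and -0.89). Lcn2, a neutrophil granule gene placed in this list, rose in HET by 0.70, and the other 10 were not called against WT. Of 17 tested transcription factors that act on receptor genes, 2 rose in HET, Cebpa among them. Cebpa, needed for granulocyte and monocyte progenitors and for Csf3r expression, had a mean of 88.7 FPKM in WT, 133 in HET and 126 in KO. Its change was 0.58 ± 0.13 in HET (limma, adjusted p = 0.0392) and 0.52 ± 0.13 in KO (limma, adjusted p = 0.0599). Spi1 was at 77.5 to 133 FPKM and was not called.

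**Figure D3:**
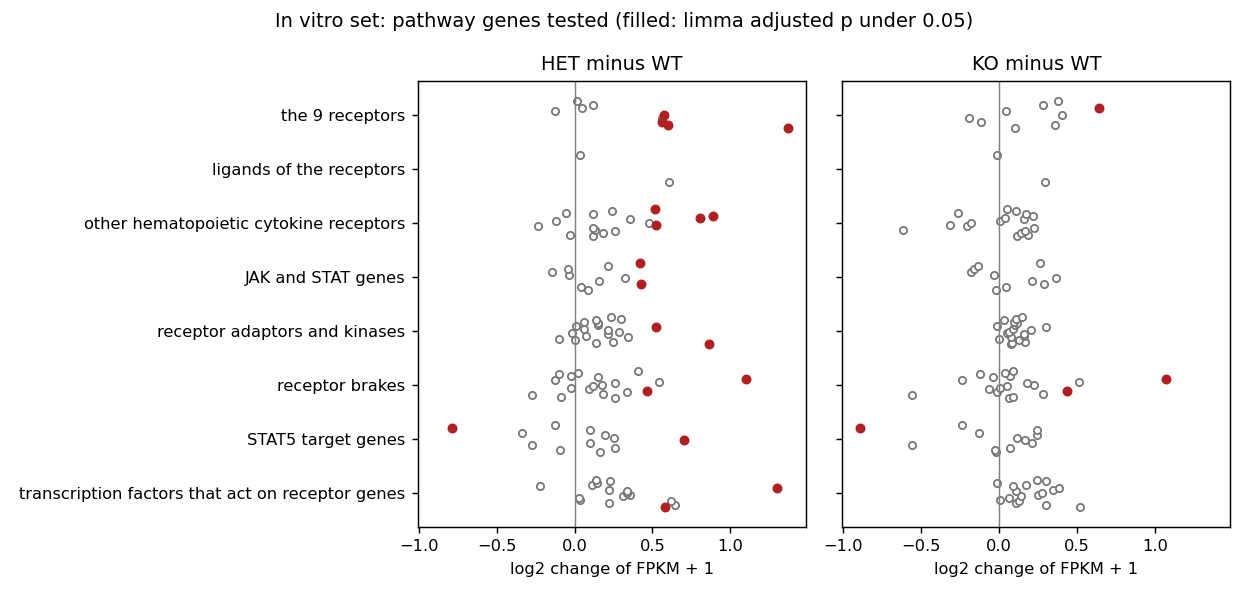
Changes on the log2(FPKM + 1) scale of every tested gene of the receptor pathway lists in the in vitro set, HET minus WT on the left and KO minus WT on the right, with 1 point per gene and filled points at an adjusted p under 0.05. Filled points in HET lie mostly to the right of 0, and in KO they are Flt3, Socs3 and Dok3 on the right and Pim2 on the left.

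Receptors of other blood cytokines were counted for comparison, against the same 3.68% of genes called in HET and 2.99% in KO against WT. In HET against WT 4 of 17 tested rose, namely Il6ra and its signalling partner Il6st, the decoy receptor Il1r2 and the TNF receptor Tnfrsf1b, with log2 changes of 0.80, 0.89, 0.52 and 0.52. By limma none was called in KO against WT (4 of 17 at an unadjusted p under 0.05, against 2114 of all 10877 genes). Il1r2 was lower in KO than in HET (-0.84).

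The genes whose levels followed each receptor most closely over the 9 in vitro libraries were found by Pearson r of log2(FPKM + 1) among tested genes. For Csf1r they were Clec5a (0.977), Ms4a6d (0.974) and Fn1 (0.974), and for Csf2ra they were Lyz2 (0.972), Plaur (0.972) and Rhou (0.967). Csf3r was followed by Mmp19 (0.980), Gga1 (0.979) and Tcirg1 (0.975). Csf2rb was followed by Slc45a3 (0.983) and Csf2rb2 (0.979), and both beta chains by the cell cycle factor gene E2f2 (0.972 and 0.979). For Kit the nearest were Man1a (0.975), Smarcal1 (0.973) and Exd2 (0.961), and Exd2 (0.957) also followed Flt3, after Tmem215 (0.967) and Nlgn2 (0.961). Il3ra was followed by Exosc4 (0.984) and Epor, at a lower r, by Cers2 (0.920) and the globin gene Hbb-bs (0.881). These coefficients describe 9 libraries that share genotypes and were picked as the highest of many.

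In sorted bone marrow the receptors stood in another order. Csf1r was at 68.1, 39.0 and 90.7 FPKM in WT, 63.9 and 163 in HET, and 35.7, 32.2 and 27.2 in KO, among the 3 highest receptors in each library. The KO libraries lay below all others for Csf1r, with a change of -0.96 ± 0.84 against WT that did not pass (limma, adjusted p = 0.995). Csf2ra was at 25.6, 50.5 and 20.0 FPKM in WT, 8.30 and 19.0 in HET, and 41.7, 41.9 and 21.3 in KO, so HET lay below the others while WT and KO overlapped. Csf2rb was at 19.6, 37.4 and 13.9 FPKM in WT, 4.15 and 34.2 in HET, and 6.60, 36.1 and 18.9 in KO, with all genotypes overlapping.

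The other receptors ranged from near 0 to 19.4 FPKM or more within a genotype. Flt3 was at 39.9, 0.0249 and 20.7 FPKM in WT, 0 and 7.07 in HET, and 14.9, 10.2 and 30.4 in KO. Kit was at 1.90, 0.00747 and 8.51 FPKM in WT, listed at 0 in HET 1 and HET 3, and detected in KO at 0.0472, 19.4 and 1.60 FPKM. Csf3r was at 1.78, 41.5 and 22.5 FPKM in WT, 45.9 and 7.38 in HET, and 0.0264, 16.9 and 44.1 in KO. For Csf3r the value of KO 1 corresponds to about 1.5 fragments and that of KO 3 to about 5500, so libraries of 1 genotype disagreed by far more than counting error.

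Il3ra and Csf2rb2 were at or near 0 in most bone marrow libraries. Il3ra was at 14 FPKM in WT 1 and 11.4 in KO 2 and at or below 0.216 in the other 6. Csf2rb2 was listed at 0 in 7 of 8 libraries and at 2.78 FPKM in KO 2, although its paralogue Csf2rb was above 0 in all 8. The exact two-sided permutation tests of these genes gave p of 0.5 to 1 over the 3 comparisons, where the smallest p with 3 against 3 libraries is 0.1.

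None of the 6 receptors tested in bone marrow was called by limma in any comparison, and none had an unadjusted p under 0.05. Over all 7246 genes tested, 0% were called in KO against WT (370 at an unadjusted p under 0.05), 0.262% in HET against WT and 0.166% in KO against HET, so few genes of any kind passed there. Calls over all genes rose to 323 in HET against WT and 330 in KO against HET without HET 3, and to 111 and 119 without HET 1. In these refits HET is 1 library, assumed to vary like the other groups, so they say little about the receptors. The KO against WT change in vitro was also set against that in bone marrow, a difference called for 0.738% of the 6915 genes tested in both and for none of the 6 receptors (543 genes and 0 receptors at an unadjusted p under 0.05). In vitro minus bone marrow, it was 1.06 ± 0.81 for Csf1r and -0.23 ± 1.52 for Flt3, with SEs that leave room for changes as large as those called in vitro. The neutrophil list's summed FPKM was 7607 to 57469 in WT, 132910 to 133460 in HET and 137790 to 213510 in KO. Xist was at 5.01 to 13.8 FPKM in KO against 37.6 to 57.2 in WT and 31.4 to 65.1 in HET. The Y gene Eif2s3y was at 1.10 to 5.85 in KO and listed at 0 in WT and HET. Ddx3y overlapped, at 0 to 3.90 in WT, 0 in HET and 0 to 4.72 in KO. Kdm5d and Uty were listed at 0 in WT and HET and ranged from 0 to 14.9 and from 0 to 13.9 in KO. The part of the neutrophil genes or of the sex-linked genes in the receptor values, Csf1r included, was not tested.

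**Figure D4:**
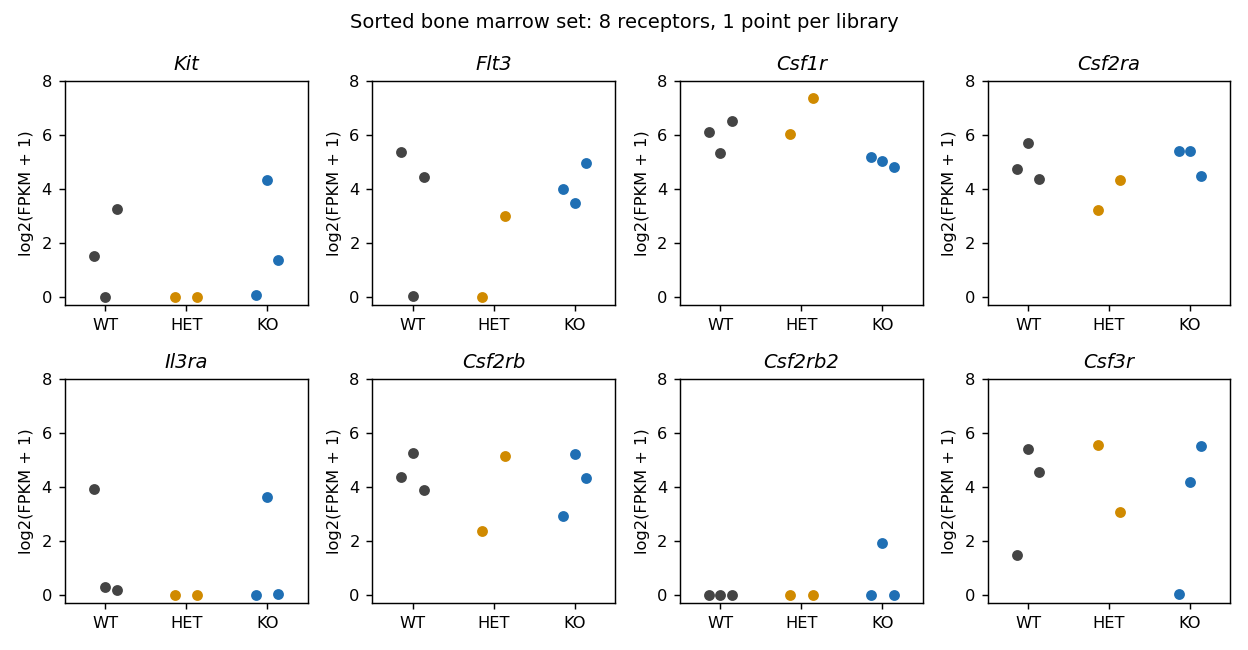
Levels of 8 receptors in sorted bone marrow as log2(FPKM + 1), 1 point per library (3 WT, 2 HET, 3 KO). Csf1r and Csf2ra are above 3 on this scale in every library, while Kit, Flt3, Il3ra and Csf3r spread from near 0 to above 3 within WT or KO, and Csf2rb2 is above 0 in KO 2 only.

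Ratios within a library do not depend on how the tables were scaled and set the sets side by side. Csf3r exceeded Csf1r in all 9 in vitro libraries and in 2 of 8 bone marrow libraries, WT 2 (1.06) and KO 3 (1.62). Kit exceeded Flt3 at least 10.7 times in vitro and was below it in 5 of the 6 bone marrow libraries where both were above 0, with ratios of 0.00316 to 0.412 there and 1.89 in KO 2. Csf2rb was 0.158 to 1.80 times Csf2ra in bone marrow, against 10.3 to 23.3 times in vitro. The sets differ in the preparation the cells were sorted from and were deposited as separate tables, and no test was made of these ratios.

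**Figure D5:**
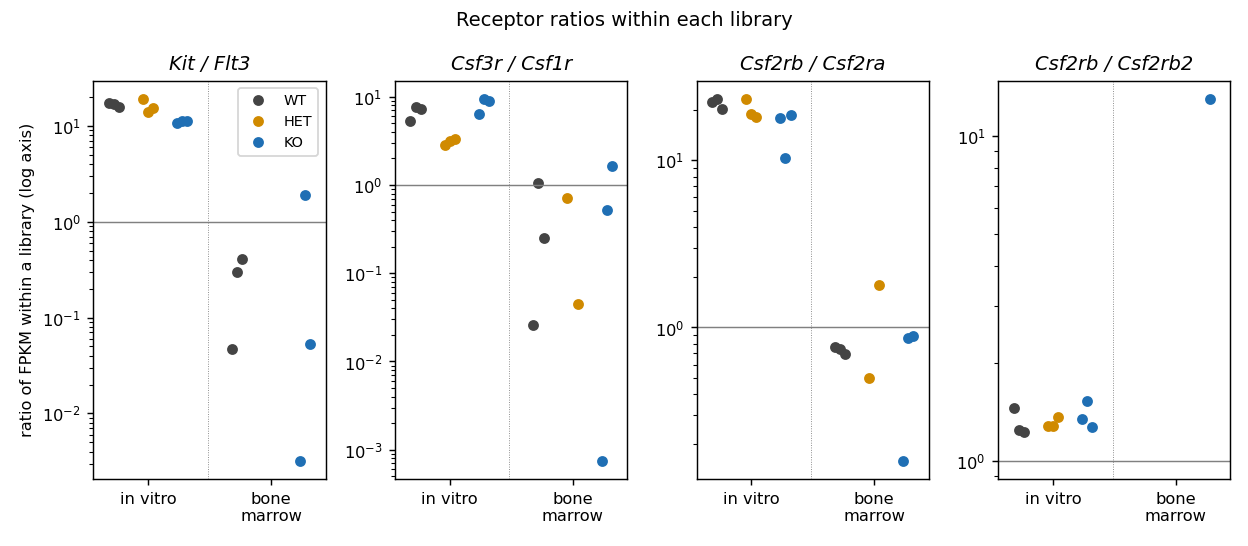
Ratios of FPKM within each library on log axes, for Kit to Flt3, Csf3r to Csf1r, Csf2rb to Csf2ra and Csf2rb to Csf2rb2, with the in vitro set left and bone marrow right of the dotted line in each panel. Libraries in which either gene is listed at 0 have no point, and the grey line marks equal levels. The in vitro libraries lie above the line for all 4 ratios, and most bone marrow libraries lie below it for the first 3.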

How the data were processed

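Per the file headers, each set had its own table of FPKM, which the authors deposited. They are scaled by transcript length and mapped fragments and hold no raw counts, so a few abundant transcripts can move all other values. Per the submitters' processing notes the genome build was mm10. RNA was extracted with TRIzol and made into libraries with a VAHTS kit, per the labels' protocols. The aligner, counter, annotation and strandedness were not given in the sources used here. Tests used limma 3.58.1 in R 4.3.3 on log2(FPKM + 1), two-sided, with an intensity trend and robust moderation (statmod 1.5.0), over genes that reached an FPKM of 1 in 3 or more of a table's libraries. Each table had 1 fit for all genotypes, and the Benjamini-Hochberg adjustment ran over all genes tested, with a threshold of 0.05. This scale understates changes of low genes. The difference between the sets was an interaction in a joint fit. Members that failed the filter had an exact permutation test on FPKM. The labels do not tie a library to a mouse, so the p-values measure the spread between libraries. The fit was tested on simulated data. Members, 7 pathway lists and 11 marker lists were chosen with earlier results of these data known. All members were named, with up to 5 called genes of smallest p per list, all ligands and the 3 nearest genes by Pearson r for each member (mean FPKM of at least 2), of which some are not reported here, and a few uncalled genes of known role that were chosen after their values were seen. Depths are estimates from low values of single-exon genes, of which 76.3 to 89.3% lay within 0.1 of a whole step, and entered no test. Each depth was chosen to bring these same values near whole steps, so that share is no independent check of it. Alternatives were another pseudocount, other filters and scalings, only the compared groups, the replicate number as a block, and leaving out each library. Sequences were read with Python 3.11.15 and aligned with Biopython 1.88.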

Additional observations from a re-analysis of the deposited data

How the results depend on the processing

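Of the in vitro and bone marrow counts, those of bone marrow and of the difference between the sets stayed at 0 in every alternative. In vitro, the KO against WT count fell from 1 to 0 with a filter at FPKM of 5, which removes Flt3. Leaving out 1 library at a time gave 0 to 2 receptors in KO against WT, 1 to 5 in HET against WT and 1 to 4 in KO against HET. The labels do not say whether the replicate numbers pair the libraries. Same-numbered libraries correlated in their deviations from the genotype mean at -0.303 to 0.181 in vitro (3 of 9 pairs over 0.1) and -0.0191 to 0.0323 in bone marrow. In these sets 2 of 9 and 3 of 8 libraries correlated best with their own number. Deviations within a genotype balance out by construction, so these coefficients cannot decide whether the libraries are paired. With the replicate block, 1 receptor was called in KO against WT, 3 in HET against WT, 2 in KO against HET and 0 in bone marrow. The calls not made with the block were Csf2rb in HET against WT (limma, adjusted p = 0.0613) and Flt3 in KO against HET (0.0645). Over all genes the replicate block gave 172, 234 and 160 calls in vitro, in place of 325, 400 and 216. Values of single receptors changed sign in 14 of 456 in vitro refits, between -0.13 and 0.06 and with no call in either fit, for Csf1r, Csf2rb, Csf2rb2 and Epor in KO against WT and for Flt3, Il3ra and Kit in HET against WT. In bone marrow and the difference between the sets, 35 of 425 did, also without a call. Quantile normalization left the in vitro receptor counts at 4, 1 and 3, and lowered the share of higher calls over all genes from 80.0% to 60.2% in HET against WT and from 45.5% to 35.1% in KO against WT. TPM moved the median of all genes in HET against WT to 0.11, and Csf1r to 1.59. In bone marrow HET 1 had about 3.93 M fragments.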
